A study of Mus musculus with 28 samples.

Results

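The 10 genes described here encode enzymes that burn fatty acids in mitochondria and use ketone bodies, together with the kinase that turns pyruvate away from oxidation. They were chosen by symbol (Cpt1a, Cpt2, Hadha, Hadhb, Acadm, Acadl, Acadvl, Bdh1, Oxct1 and Pdk4), and all 10 were present once in each of 2 tables of 15097 and 15054 genes, of which 14888 were shared. The libraries, prepared from total RNA with ribosomal RNA depleted, came from frontal cortex tissue of 28 individual C57Bl/6 males in 2 cohorts. In the first, 8 mice under chronic social stress (CSS) had been housed alone for 7 weeks and repeatedly confronted with other mice each day over the last 20 days, and 8 mice kept under control conditions served as CSS_control, all at 21 weeks of age. In the second, 6 mice with induced type 2 diabetes (T2D) had received 75 mg/kg streptozotocin, a toxin of insulin-producing cells, and a high-fat diet (43.2% of energy as fat) for 21 weeks, and 6 mice under control conditions served as T2D_control, all at 30 or 31 weeks.

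Long-chain fatty acids enter mitochondria through the carnitine shuttle, in which CPT1 on the outer membrane makes acylcarnitine and CPT2 on the inner membrane turns it back to acyl-CoA. Acyl-CoA dehydrogenases and the trifunctional protein then shorten the chain step by step to acetyl-CoA. In the brain, glucose is the main fuel, fatty acid oxidation is attributed mostly to astrocytes, and neurons and glia burn ketone bodies when the liver releases them in fasting or insulin deficiency. PDK4 phosphorylates and so inhibits the pyruvate dehydrogenase complex, and in muscle and liver its gene is raised by fasting, diabetes, glucocorticoids and PPAR receptors.

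Library totals, in M estimated counts, ranged from 15.2 to 21.9 for CSS, from 14.3 to 37.5 for CSS_control, from 14.3 to 22.7 for T2D and from 12.1 to 21.6 for T2D_control. Markers of cortical excitatory neurons were present (10 of 10 in both tables), as were those of astrocytes (14 of 14). Markers of striatal projection neurons were present too (9 of 9), with a summed level (CPM, counts scaled to library size by TMM) of 968 to 1615 in CSS, 1081 to 2312 in CSS_control, 333 to 2132 in T2D and 428 to 1860 in T2D_control. None of the 9 passed a test, but all 9 had negative estimates in CSS (median log2 −0.27) and positive ones in T2D (0.53), with a median difference between the responses of −0.76. Their part in the differences described here was not tested. In tissue of mixed cells, fewer cells of a type and less RNA per cell cannot be told apart.

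Hadha and Hadhb, which encode the alpha and beta subunits of the trifunctional protein, lie head to head on chromosome 5. The stretch between their annotated starts (chr5:30155163-30155247, GRCm38, plus strand) is shown because it separates the starts of both genes. It is 85 bases long, 69.4% of them G or C, and it lies in no annotated exon of either gene.

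Hadha to Hadhb: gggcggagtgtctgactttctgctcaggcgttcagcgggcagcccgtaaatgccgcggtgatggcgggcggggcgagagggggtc

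RefSeq windows from 250 bases before to 50 bases after each start (GRCm38.p6) matched all 10 genes, in 11 windows since Bdh1 has 2. The nuclear receptor element AGGTCA, searched on both strands (AGGTCA or TGACCT), was found in 3 of the 11, beside 16.3% of 32851 windows of that length. These 3 stretches are shown, gene strand 5′ to 3′, with the element in capitals, because PPAR receptors bind paired copies of it. That of Cpt1a lies before its RefSeq start but inside the gene as annotated by GENCODE, which starts at base 3322334.

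Acadm, 249 bases before the RefSeq start (chr3:153944877-153944893, minus strand): gTGACCTtcgggctccg

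Acadvl, 87 bases before the RefSeq start (chr11:70015500-70015525, minus strand): ggatcaccctAGGTCAggtagaatac

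Cpt1a, 94 bases before the RefSeq start (chr19:3323197-3323222, plus strand): gtttccttacTGACCTcctccccgca

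The direct repeat of that element with a 1-base spacer was in 0 of the 11 and in 0.0396% of all windows. The FoxO element GTAAACA (3.65% of all windows), the E-box CACGTG (7.15%) and the NRF1 element (0.971%) were in 0 of the 11. A match or its lack describes these letters in this window only.

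Per kb of exon, Oxct1 had the highest level of the 10 in each of the 4 groups, with 73.4 to 79.0 CPM per kb as group means. Its product SCOT activates acetoacetate and is the committed step of ketone use. Acadvl, the very long-chain dehydrogenase at the inner membrane, came next (11.9 to 12.3 CPM per kb), a rank that is uncertain because 42.9% of its exon bases lie opposite exons of Dvl2. Hadhb, Acadl, Bdh1 and Acadm followed within 6.57 to 9.25 CPM per kb. Their order differed between the cohorts, with Acadl before Bdh1 in both groups of the CSS cohort and Bdh1 before Acadl in both groups of the T2D cohort. Hadha was at 5.56 to 6.11 CPM per kb and Cpt1a, the isoform of liver and astrocytes, at 2.76 to 3.30. Pdk4 (1.88 to 2.14 CPM per kb) and Cpt2 (1.19 to 1.58 CPM per kb) were lowest, and their mean ± SD ranges overlapped in CSS_control and T2D but not in CSS or T2D_control. Those of Acadl and Bdh1 overlapped in all 4 groups. Lengths are the joined exons of all annotated transcripts, from 2005 bases for Acadl to 8730 for Hadha. The order of the genes depends on these lengths, and which transcripts the reads came from was not examined. Without division by length, Hadha had 48.5 to 53.3 CPM as group means, under only Oxct1 and Hadhb. The 2 tables were scaled separately, so levels across cohorts are set side by side and were not tested.

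**Figure D1:**
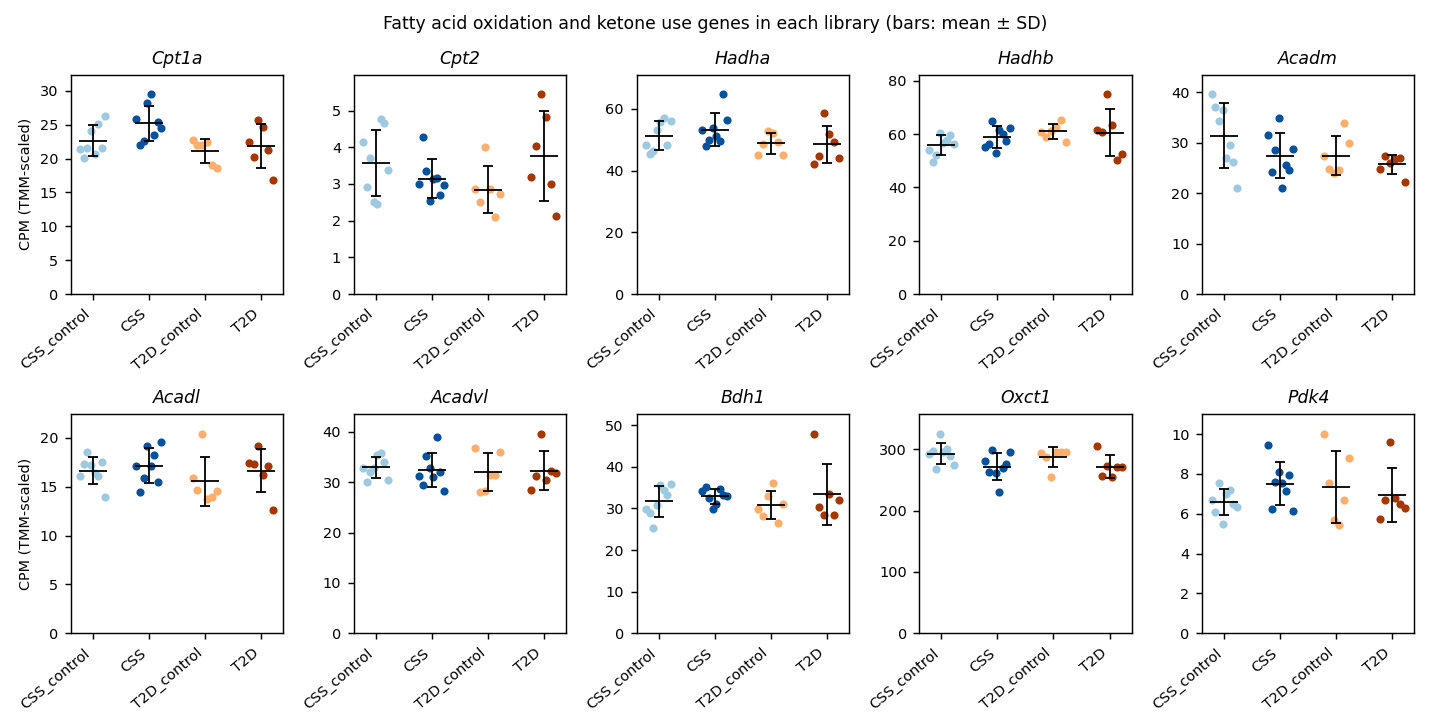
Level of each of the 10 genes in CPM (TMM-scaled, linear axis from 0) in each library, by group, with the mean and SD as bars (8 libraries in CSS and CSS_control, 6 in T2D and T2D_control). The points of treated and control libraries overlap in all 10 genes of both cohorts, with Oxct1 at 231 to 325 CPM and Cpt2 at 2.10 to 5.44 CPM.

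The CSS cohort addresses the response of frontal cortex to social stress. None of the 10 genes passed the edgeR quasi-likelihood test at an adjusted p of 0.05, and the libraries of stressed and control mice overlapped in each gene. Over all 15097 genes 4.52% were called and 0.609% did not overlap. DESeq2 called none of the 10 either, beside 8.7% of all genes. The estimated log2 fold changes ran from −0.20 (Acadm) to 0.19 (Pdk4), with a median of 0.05 beside 0.01 over all genes, and 6 were positive beside 51.3% of all genes. Only Cpt1a had an unadjusted p under 0.05, beside 21.5% of all genes.

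Cpt1a (ENSMUSG00000024900, chromosome 19, 3322334 to 3385733, GRCm38/mm10), the rate-setting entry enzyme of the carnitine shuttle, ranged from 20.0 to 26.3 CPM in CSS_control (median 21.5) and from 22.05 to 29.4 CPM in CSS (median 24.9). Of the stressed mice 6 of 8 were above the control mean and 2 above all controls. The mean was 22.6 ± 2.29 CPM in controls and 25.2 ± 2.61 CPM in CSS (SD, n = 8 each), a 1.12-fold estimate with a 95% interval of 1.002 to 1.24 (adjusted p = 0.225, edgeR). Of 14 astrocyte markers 3 rose and none fell in the same test, beside 2.11% of all genes called higher. Their estimates were positive in 9 and negative in 5. The summed level of these markers was 5280 to 6498 CPM in CSS and 4691 to 5509 CPM in controls. Their part in the Cpt1a value was not tested. Cpt2 (ENSMUSG00000028607, chromosome 4, 107903981 to 107923610), the inner-membrane partner, was at 3.57 ± 0.911 CPM in controls and 3.14 ± 0.531 CPM in CSS (SD, n = 8 each). It rested on 37.5 to 39.8 estimated counts in the lowest library of these groups, and its interval of 0.703 to 1.11-fold was the widest of the 10 in CSS (adjusted p = 0.554).

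The trifunctional subunits had estimates close to no change. Hadha (ENSMUSG00000025745, chromosome 5, 30118304 to 30155162) was at 51.3 ± 4.69 CPM in controls and 53.3 ± 5.33 CPM in CSS, and Hadhb (ENSMUSG00000059447, chromosome 5, 30155248 to 30184593) at 55.8 ± 3.83 and 58.9 ± 4.13 CPM (SD, n = 8 each). Their 95% intervals were 0.944 to 1.15-fold and 0.9751 to 1.14-fold (adjusted p = 0.666 and 0.436). Within a library the ratio of Hadhb to Hadha counts was 1.09 ± 0.0792 in controls and 1.11 ± 0.137 in CSS. Over the 16 mice of that cohort the ratio was lowest in a stressed mouse (0.887) and also highest in one (1.30).

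Of the acyl-CoA dehydrogenases, Acadl (ENSMUSG00000026003, chromosome 1, 66830839 to 66863277), for long chains, and Acadvl (ENSMUSG00000018574, chromosome 11, 70010183 to 70015411) had estimates of 1.03-fold (0.924 to 1.14) and 0.984-fold (0.896 to 1.08). Although the library kit marks strand, the sources used here do not say whether counting used it, so it is not known whether reads of Acadvl and Dvl2 were kept apart. Acadm (ENSMUSG00000062908, chromosome 3, 153922357 to 153944632), for medium chains, ranged from 21.0 to 39.6 CPM in CSS_control (median 31.9) and from 21.1 to 34.96 CPM in CSS (median 27.1). Its estimate was 0.872-fold with an interval of 0.731 to 1.04 (adjusted p = 0.365). Every stressed mouse lay within the range of the controls.

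The control libraries carry title codes that begin MC_C1 for CSS_control 1 to 4 and MC_C2 or MC_C3 for CSS_control 5 to 8. Codes of the stressed libraries begin MSS_C1 for CSS 1 and MSS_C2 to MSS_C4 for CSS 2 to 8. The code numbers are thus spread unevenly over stressed and control mice. The meaning of the codes is not given in the sources used here, nor whether the numbers match between the groups. Of the 10 genes 2, Acadm and Bdh1, did not overlap between these sets of controls, in opposite directions, beside 10.5% of all genes (1586 of 15097). The split is thus found in many other genes too. Acadm was at 34.3 to 39.6 CPM in CSS_control 1 to 4 and at 21.0 to 29.5 CPM in CSS_control 5 to 8. Bdh1 was at 25.2 to 30.8 and at 33.3 to 35.8 CPM. The stressed mice, at 27.4 CPM of Acadm and 32.9 CPM of Bdh1 on average, lay nearer to CSS_control 5 to 8 (25.9 and 34.8 CPM) than to CSS_control 1 to 4 (36.9 and 28.7 CPM).

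Against CSS_control 1 to 4 alone, 1 of the 10 genes passed, Acadm, with a log2 change of −0.43 ± 0.109 (SE, adjusted p = 0.0280, edgeR). In that fit 7.48% of all genes were called, 4.2% as lower. Against CSS_control 5 to 8 alone the Acadm estimate was 0.08 ± 0.123 (adjusted p = 0.821), and 0 genes in all were called (0%). The Bdh1 estimate was 0.20 in the first fit (adjusted p = 0.0988) and −0.08 in the second (adjusted p = 0.591). For Cpt1a, Hadhb, Oxct1, Pdk4 and Cpt2 the sign was the same in both fits.

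**Figure D2:**
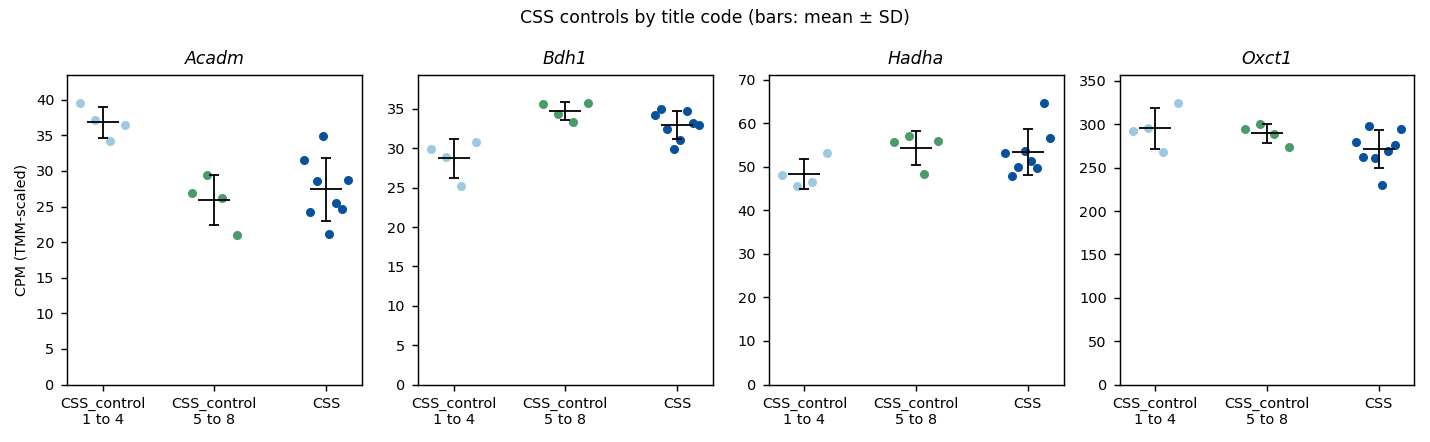
Levels in CPM (linear axis from 0) of 4 of the genes in CSS_control 1 to 4, CSS_control 5 to 8 and CSS libraries, with mean and SD as bars. Acadm and Bdh1 separate the controls by title code (34.3 to 39.6 against 21.0 to 29.5 CPM for Acadm), as do 10.5% of all genes, while Hadha and Oxct1 overlap.

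Of the ketone enzymes, Bdh1 (ENSMUSG00000046598, chromosome 16, 31422280 to 31458901), which oxidises beta-hydroxybutyrate to acetoacetate, was at 31.7 ± 3.69 CPM in all controls and 32.9 ± 1.77 CPM in CSS (SD, n = 8 each; interval 0.941 to 1.15-fold). Oxct1 (ENSMUSG00000022186, chromosome 15, 4026383 to 4155344) ranged from 268 to 325 CPM in controls (median 293) and from 231 to 298 CPM in CSS (median 273). Of the stressed mice 6 of 8 were under the control mean and 3 under all controls. The estimate was 0.929-fold with an interval of 0.861 to 1.003 (adjusted p = 0.250, edgeR). Exon bases of Bdh1 and Oxct1 lie opposite Gm15743 (13.7%) and BC037032 (12.6%).

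Pdk4 (ENSMUSG00000019577, chromosome 6, 5483351 to 5496309) ranged from 5.47 to 7.57 CPM in controls (median 6.61) and from 6.15 to 9.46 CPM in CSS (median 7.56). Of the stressed mice 6 of 8 were above the control mean and 4 above all controls. The estimate was 1.14-fold with an interval of 0.986 to 1.31 (adjusted p = 0.287, edgeR). Across the 10 genes, the interval limit farthest from no change lay between 1.12-fold (Acadvl) and 1.42-fold (Cpt2) in CSS, taken in either direction.

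The T2D cohort addresses a metabolic stress. None of the 10 genes passed, and none had an unadjusted p under 0.05. Over all 15054 genes edgeR called 0% (0 genes, with 879 or 5.84% at an unadjusted p under 0.05, while DESeq2 called 4, or 0.0266%, none of them among the 10). The groups overlapped in each of the 10 genes, and 0.146% of all genes did not overlap. The log2 estimates ran from −0.10 (Acadm) to 0.40 (Cpt2), with 5 positive beside 50.8% of all genes.

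Cpt2 had the largest estimate. It ranged from 2.10 to 4.02 CPM in T2D_control (median 2.79) and from 2.14 to 5.44 CPM in T2D (median 3.61). Of the diabetic mice 3 of 6 were above all controls. The estimate was 1.32-fold, with an interval of 0.940 to 1.86 (adjusted p = 0.833, edgeR), the widest of the 10 in T2D. Cpt1a, by contrast, was at 21.1 ± 1.77 CPM in controls and 21.9 ± 3.21 CPM in T2D (SD, n = 6 each; interval 0.889 to 1.21-fold).

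Hadha (48.9 ± 3.37 and 48.5 ± 6.10 CPM) and Hadhb (61.0 ± 2.93 and 60.6 ± 8.68 CPM, SD, n = 6 each) had nearly the same means in controls and T2D. Their ratio was 1.252 ± 0.0741 in controls and 1.253 ± 0.147 in T2D. Both subunits varied more among diabetic mice, with a coefficient of variation of 12.6% and 14.3% beside 6.90% and 4.80% in controls, and the difference in spread was not tested. Acadm was at 24.0 to 34.0 CPM in controls (median 26.1) and at 22.1 to 27.4 CPM in T2D (median 26.4), so the diabetic mice lay within the lower part of the control range and beneath it. The intervals were 0.812 to 1.08-fold for Acadm, 0.897 to 1.28 for Acadl and 0.876 to 1.16 for Acadvl.

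Bdh1 ranged from 26.6 to 36.0 CPM in controls (median 30.4) and from 28.4 to 47.9 CPM in T2D (median 31.1). The value of T2D 1 lay far above the other 5 diabetic mice. Without T2D 1 the log2 estimate of Bdh1 went from 0.12 to −0.01. Oxct1 ranged from 254 to 295 CPM in controls (median 294) and from 254 to 306 CPM in T2D (median 271). The control minimum was that of T2D_control 3 alone (254 CPM, next 288). The highest diabetic value was that of T2D 1 (306 CPM, next 272). Of the diabetic mice 5 of 6 were under the control mean, with an estimate of 0.947-fold (0.863 to 1.04, adjusted p = 0.861, edgeR). Pdk4, whose gene responds to diabetes in muscle and liver, ranged from 5.42 to 10.0 CPM in controls (median 7.12) and from 5.75 to 9.62 CPM in T2D (median 6.59). The controls spanned the whole range of the diabetic mice, and the interval was 0.733 to 1.22-fold (adjusted p = 0.954). With RIN (RNA integrity number) as a covariate the Pdk4 estimate changed from −0.08 to 0.09 log2 units, neither past the test. RIN was 9.37 ± 0.509 in controls and 9.05 ± 0.235 in T2D.

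T2D 3 was the highest of the 6 diabetic libraries in 7 of the 10 genes (Cpt1a, Cpt2, Hadha, Hadhb, Acadl, Acadvl and Pdk4), and T2D 6 was the lowest in 4 (Cpt1a, Cpt2, Acadm and Acadl). Microglial markers were highest of the group in T2D 3 (375 CPM summed, 192 to 254 CPM in the other 5), and so were oligodendrocyte markers (3509 CPM). T2D 6 was lowest in markers of oligodendrocytes (2391 CPM), endothelial cells (168 CPM) and astrocytes (3801 CPM, beside 4873 CPM in T2D 3, the second highest). Excitatory neuron markers were lowest of the group in T2D 3 (1126 CPM) and striatal markers highest in T2D 6 (2132 CPM). The part of these markers in the genes' levels was not tested.

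**Figure D3:**
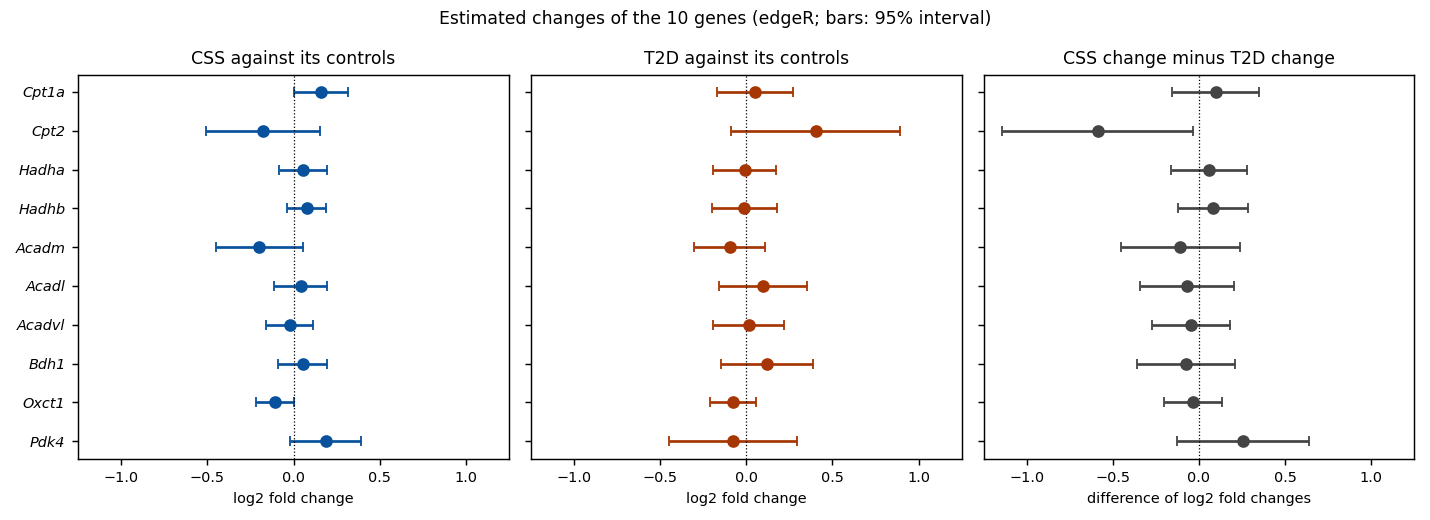
Estimated log2 fold change of each gene in CSS and T2D against their own controls, and the difference between the 2 (edgeR), with 95% intervals. No estimate passed an adjusted p of 0.05, and Cpt2 has the widest interval in each panel (0.703 to 1.11-fold in CSS, 0.940 to 1.86-fold in T2D).

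The difference between the 2 responses was tested over all 28 libraries. None of the 10 genes passed, beside 0.0806% of the 14888 shared genes (12 genes), and none passed with DESeq2, beside 0.873%. Cpt2 had the smallest p, with a CSS change minus T2D change of −0.59 ± 0.271 log2 units (SE, adjusted p = 0.377, edgeR), and 12.4% of all genes had an unadjusted p under 0.05. Pdk4 followed at 0.25 ± 0.188 (adjusted p = 0.610). For Oxct1 the difference was −0.04 ± 0.0823, with an interval of 0.868 to 1.096-fold, the narrowest of the 10. Its estimates of 0.929-fold in CSS and 0.947-fold in T2D were on the same side, each with an interval that includes no change. An adjusted p above the threshold does not show that the responses were alike.

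The spread between mice of a group was, at the median, slightly under that of all genes, which were not matched to the 10 for level. The median coefficient of variation of the 10 genes was 9.60% in CSS_control, 10.4% in CSS, 11.3% in T2D_control and 13.7% in T2D, beside 11.99%, 12.4%, 12.8% and 15.4% over all genes. The lowest spread was that of Hadhb in T2D_control (4.80%) and the highest that of Cpt2 in T2D (32.6%), the gene of lowest counts.

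After removal of group means, the 10 genes were related to each other more often in the T2D cohort than in the CSS cohort, a difference that was not tested. Pearson's r had a median of 0.06 over 45 pairs of genes in the 16 libraries of the CSS cohort and 0.16 in the 12 of the T2D cohort, where genes share library and depth. It was positive in 26 and 33 pairs and above 0.5 in 2 and 9. Pairs drawn from all genes were not counted, so no background share stands beside these values. An r above 0.5 also arises more easily by chance in 12 libraries than in 16. In the T2D cohort the 9 pairs above 0.5 included Cpt2 with Cpt1a (0.79), Acadl (0.78), Hadhb (0.64) and Hadha (0.63). They also included Cpt1a with Hadhb (0.63) and Acadl (0.61). In the CSS cohort the r of the same pairs lay between −0.34 and 0.14. T2D 3 was the highest and T2D 6 the lowest diabetic library in Cpt1a, Cpt2 and Acadl. The pair above 0.5 in both cohorts was Cpt1a with Hadha (0.504 and 0.612). Hadha with Hadhb, the neighbouring genes, had 0.23 and 0.57. Acadvl with Pdk4 had 0.33 and 0.81, with T2D 3 and T2D_control 1 high in both genes. Acadm with Bdh1 was negative in both cohorts (−0.60 and −0.41), and the title codes of the CSS controls divide both genes.

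**Figure D4:**
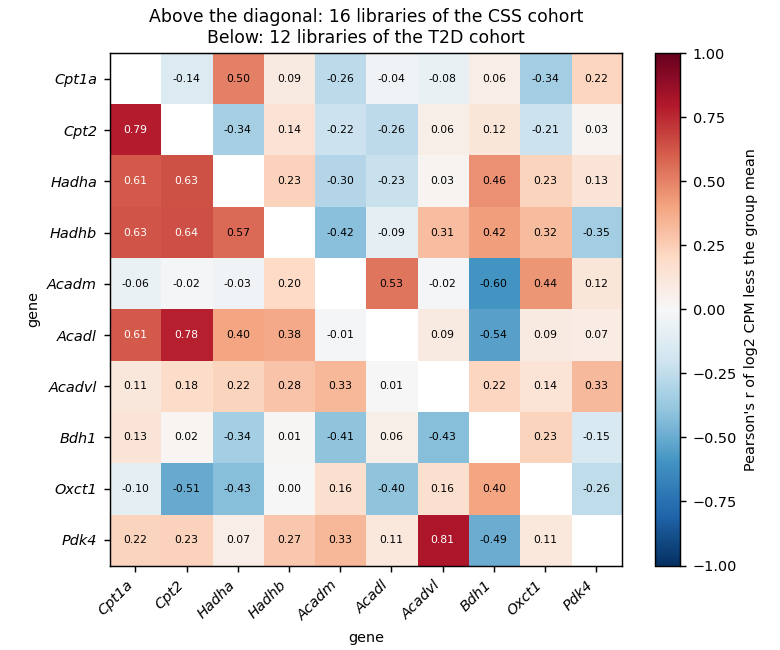
Pearson's r between the 10 genes, computed on log2 CPM less the group mean, in the 16 libraries of the CSS cohort (above the diagonal) and the 12 of the T2D cohort (below it). Cpt1a with Hadha is the pair above 0.5 in both (0.504 and 0.612), and Acadm with Bdh1 is negative in both (−0.60 and −0.41).

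Among 12650 other genes, the ones whose levels followed Cpt1a most closely (mean r of the 2 cohorts) were Aldh9a1 (0.79), an aldehyde dehydrogenase of the carnitine synthesis pathway, Rasa4 (0.73) and Pcdh20 (0.73). For Hadha they were Vps26c (0.72), Rhobtb3 (0.69) and Acss1 (0.64), the mitochondrial acetyl-CoA synthetase. For Oxct1 they were Swi5 (0.78), Sec13 (0.78) and Slc25a4 (0.77), the ADP/ATP carrier of the inner membrane. For Pdk4 they were Twistnb (0.66), Prdm16os (0.66) and Nras (0.66). Some means hide unlike cohorts, such as Twistnb with 0.41 in CSS and 0.91 in T2D, and Vps26c with 0.54 and 0.89. A function is given only for genes of carnitine, acetyl-CoA or ADP/ATP handling, which does not describe the lists as a whole. These are the highest of many values and have no test.

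Of 116 other genes of the pathway, 106 were measured in both tables. In CSS 1 was higher (beside 2.11% of all genes) and 4 were lower (beside 2.42%). Together they were 4.72% of the 106, close to the 4.52% called over all genes. In T2D none passed (5 at an unadjusted p under 0.05, and 5.84% of all genes). In the difference between the responses none passed either. The median log2 change of the 106 was 0.01 in CSS and −0.01 in T2D.

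Uptake, activation and transport had 2 of 15 genes lower in CSS and none higher. Acsl3 (ENSMUSG00000032883, chromosome 1, 78657825 to 78707743), an acyl-CoA synthetase of the endoplasmic reticulum and lipid droplets, ranged from 179 to 248 CPM in controls (median 204) and from 132.4 to 189 CPM in CSS (median 166). All 8 stressed mice were below the control mean, with a slight overlap, and the log2 change was −0.35 ± 0.0835 (SE, adjusted p = 0.0265, edgeR). In T2D its estimate was −0.18 ± 0.0663 (adjusted p = 0.825). Fabp5 (ENSMUSG00000027533, chromosome 3, 10012548 to 10016607), a fatty acid binding protein, ranged from 54.5 to 63.4 CPM in controls and from 46.8 to 54.5 CPM in CSS. The groups did not overlap but all but touched (lowest control 54.543 CPM, highest stressed mouse 54.542 CPM). Over all genes 0.609% did not overlap. Fabp5 fell by 0.17 ± 0.0465 log2 units (SE, adjusted p = 0.0481, edgeR). The Acsl3 call ended without CSS 6, CSS_control 1 or CSS_control 2 (adjusted p up to 0.0585), and that of Fabp5 in 13 of 16 fits that left out 1 library (adjusted p up to 0.101).

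Among 20 other mitochondrial beta-oxidation enzymes 1 was lower in CSS and none higher. It was Hsd17b10 (ENSMUSG00000025260, chromosome X, 152001845 to 152004442), a short-chain dehydrogenase that is also a subunit of mitochondrial RNase P. It ranged from 14.6 to 17.5 CPM in controls (median 16.3) and from 12.4 to 14.9 CPM in CSS (median 13.8). Each stressed mouse was below the control mean, and the log2 change was −0.24 ± 0.0615 (SE, adjusted p = 0.0350, edgeR). The call ended in 7 of the 16 fits that left out 1 library (adjusted p up to 0.0743).

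Of 24 regulators 1 was lower in CSS. Prkab1 (ENSMUSG00000029513, chromosome 5, 116013586 to 116024508), the beta 1 subunit of the energy sensor AMPK, ranged from 8.83 to 11.5 CPM in controls (median 10.3) and from 7.08 to 9.06 CPM in CSS (median 7.75). All 8 stressed mice were below the control mean, the log2 change was −0.39 ± 0.0783 (SE, adjusted p = 0.0126, edgeR), and the call held in all 16 fits that left out 1 library. In T2D the estimate was 0.32 ± 0.167 (adjusted p = 0.825), and the difference between the responses, −0.72 ± 0.166, had an adjusted p of 0.0770. That difference passed in 1 of 6 other settings and in 1 of 28 fits that left out 1 library. Ppara, the receptor that drives many of these genes in liver and is named here after its values were seen, did not pass, with a log2 estimate of 0.70 ± 0.248 (adjusted p = 0.109, edgeR). Sirt1 (0.21, adjusted p = 0.0763) and Acaca (0.18, adjusted p = 0.0971), named likewise, had smaller p in that test and did not pass either.

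Of 9 measured PPAR target genes 1 was higher in CSS. Plin4 (ENSMUSG00000002831, chromosome 17, 56100591 to 56109803), a lipid droplet coat protein, ranged from 2.02 to 4.52 CPM in controls (median 3.94) and from 3.65 to 9.51 CPM in CSS (median 6.78), with 7 of 8 stressed mice above the control mean. The log2 change was 0.82 ± 0.189 (SE, adjusted p = 0.0227, edgeR), and the call held in all 16 fits that left out 1 library. In T2D Plin4 was at 5.29 to 19.4 CPM in controls and 3.19 to 18.2 CPM in treated mice, and the estimate was −0.81 ± 0.479 (adjusted p = 0.838). The difference between the responses, 1.62 ± 0.489, had an adjusted p of 0.168. It passed in 1 of 6 other settings and in 1 of 28 fits that left out 1 library.

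Against CSS_control 5 to 8 alone, where 0 genes were called, the 5 called genes had the same direction, from −0.37 for Prkab1 to 1.02 for Plin4. The Acsl3 estimate depended on the controls, at −0.49 (adjusted p = 0.00584) against CSS_control 1 to 4 and −0.19 (adjusted p = 0.371) against CSS_control 5 to 8. That of Fabp5 was −0.20 (adjusted p = 0.0486) and −0.13 (adjusted p = 0.346). Against CSS_control 1 to 4 alone Plin4 (adjusted p = 0.0955) and Hsd17b10 (0.117) were not called. Over all genes 2.42% were called lower and 2.11% higher in CSS. Of 12 microglial markers 5 fell in CSS, with a summed level of 202 to 395 CPM and 378 to 433 CPM in controls. Of 12 endothelial markers 2 rose. Of oligodendrocyte precursor markers 2 of 8 rose (423 to 513 CPM summed, 384 to 439 CPM in controls), and of inhibitory neuron markers 2 of 10 fell (724 to 1010 CPM, 789 to 1054 CPM in controls). Of meningeal fibroblast markers 1 of 10 rose and all 10 had positive estimates (60.9 to 186 CPM, 56.8 to 118 CPM in controls). None of 5 red blood cell markers passed (133.2 to 575 CPM, 101.9 to 231 CPM in controls). All 5 had positive estimates and an unadjusted p under 0.05, beside 21.5% of all genes at that p. The part of these cell types in the 5 genes was not tested.

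No gene passed in 3 further lists. Of 14 peroxisomal genes, which handle very long and branched chains, the smallest p in CSS were those of Amacr (log2 0.17, adjusted p = 0.357), a racemase for branched chains, and Abcd2 (−0.13, adjusted p = 0.445), a transporter of the peroxisomal membrane, and in T2D those of Phyh (−0.12) and Abcd3 (0.12, adjusted p = 0.825 for both). Of 11 other ketone genes, Hmgcll1 was at 0.19 and the lactate transporter gene Slc16a3 at −0.35 in CSS (adjusted p = 0.267 and 0.295), and in T2D they were at 0.14 and 0.51 (adjusted p = 0.854 and 0.825). Of 13 genes of pyruvate dehydrogenase, the complex that PDK4 inhibits, Pdhx was at −0.13 and Dld, its E3 subunit, at −0.13 in CSS (adjusted p = 0.158 and 0.191). In T2D Pdk2, the widely expressed sister kinase of Pdk4, was at 0.20 and the phosphatase gene Pdp1 at −0.26 (adjusted p = 0.825 and 0.838). In the lists with a call in CSS, the smallest p in T2D beside Acsl3 were those of Fabp7 (log2 0.90), a fatty acid binding protein of astrocytes and progenitors, the electron transfer flavoprotein gene Etfa (0.15), the thiolase gene Acaa2 (0.14), the nuclear receptor gene Esrrg (0.34), the AMPK subunit gene Prkab2 (−0.21), the uncoupling protein gene Ucp3 (0.59) and the thioesterase gene Acot1 (−0.44). None passed (adjusted p = 0.825 or above).

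**Figure D5:**
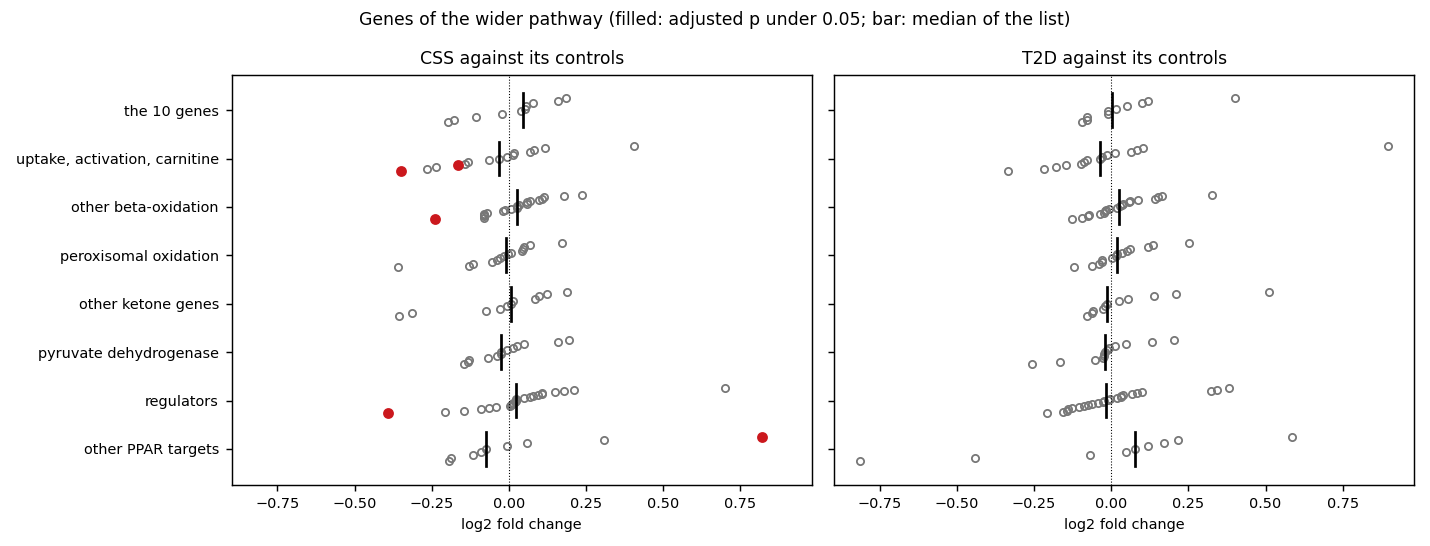
Log2 fold changes in CSS and T2D against their own controls for the 10 genes and 7 lists of related genes, 1 point per gene, with the median of each list as a bar and filled points for an adjusted p under 0.05. In CSS 5 of 106 pathway genes are filled (Acsl3, Fabp5, Hsd17b10, Prkab1 and Plin4) and none of the 10; in T2D none is.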

How the data were processed

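For each cohort the authors deposited estimated counts by gene and library. Salmon 1.1.0 and mm10 stand in the submitters' processing notes. The sources used here give neither how transcripts were summed nor any length scaling, use of strand or filter on low genes. No value above 0 was whole (tolerance 1e-06), and each listed gene reached at least 0.988 CPM in 8 libraries (CSS table) or 1.01 CPM in 6 (T2D table).

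Values were rounded and tested in R 4.3.3 with edgeR 4.0.16 (TMM, default filter, robust quasi-likelihood test, Benjamini-Hochberg adjustment over all genes, threshold 0.05), each cohort by itself, and over 28 libraries for the difference. Intervals use the t distribution of that fit. The code was tested on simulated data. Alternatives were DESeq2 1.42.0, its size factors, no filter, a minimum of 5 CPM, RIN, the replicate block, 1 fit of all libraries, control sets by title code and leaving out each library. Log2 CPM used a prior count of 2. Figures used matplotlib 3.10.9 under Python 3.11.15. Coordinates, exon lengths and overlaps are from GENCODE M21 (GRCm38, the assembly of mm10).

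The members and lists were chosen with earlier results of these data known. Some listed genes are not reported here and are left out of the list counts. Named genes were the 10, every called gene of each list, otherwise the 2 of smallest p per cohort, and the 3 most like Pdk4, Cpt1a, Hadha and Oxct1 at a mean log2 CPM of at least 1. Groups came from the titles. Same-numbered libraries of CSS and its controls had r from −0.17 to 0.36, over 0.1 in 3 of 8, and those of T2D from −0.05 to 0.14, over 0.1 in 1 of 6, so the numbers were not taken as pairs.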

Additional observations from a re-analysis of the deposited data

Results flagged for a closer look

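The 10 genes in 4 groups gave 40 sets of libraries, and in 7 of them 1 library stood apart from its group (the gap to its nearest neighbour over the group's range passed Dixon's 95% value). Chance flags about 1 in 20 such sets if values are normal. The 40 sets come from the same 28 libraries, so the flags are not independent. In T2D, Bdh1 was at 47.9 CPM in T2D 1, beside 33.4 CPM in the next library, and Oxct1, the other ketone enzyme, was also high in T2D 1 (306 CPM, next 272). Acadvl (39.6 CPM, next 32.3) and Pdk4 (9.62 CPM, next 6.79) were high in T2D 3. Among the controls of that cohort, T2D_control 3 was low in Oxct1 (254 CPM, next 288) and high in Acadl (20.4 CPM, next 15.9). That library had the lowest RIN of its group (8.5). Its summed markers were the group's highest for striatal neurons (1860 CPM) and oligodendrocytes (3564 CPM). They were the lowest for endothelial cells (166 CPM) and microglia (231 CPM). The part of RIN and of these markers was not tested. In CSS, Cpt2 was at 4.29 CPM in CSS 2, beside 3.36 CPM in the next library.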

How the results depend on the processing

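None of the 10 genes was called in any other setting or with 1 library left out, apart from Acadm, 1 gene lower, against CSS_control 1 to 4 alone (−0.43, adjusted p = 0.0280). Counts over all genes moved. In CSS 683 were called, 1313 with DESeq2, 1130 against CSS_control 1 to 4, 0 against CSS_control 5 to 8, and 222 (without CSS 6) to 794 (without CSS_control 6) with 1 library left out. In T2D 0 were called, and 4 with DESeq2. For the difference 12 were called, 130 with DESeq2, 23 at a minimum of 5 CPM, 0 with RIN, and 0 to 32 (without T2D 6) with 1 library left out. With the replicate block the counts were 478 in CSS, 0 in T2D and 32 for the difference, and Hsd17b10 (adjusted p = 0.0890) and Fabp5 (0.106) were not called in CSS. Of the same-numbered libraries, 2 of 8 in CSS and 1 of 6 in T2D correlated best with their own number.

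Of 217 log2 estimates of the 10 genes in other settings 9 changed sign, and of 560 with 1 library left out 17 did. The cause was not tested. Against CSS_control 1 to 4 the estimates were −0.013 for Acadl and 0.022 for Acadvl, and against CSS_control 5 to 8 they were −0.029 for Hadha, 0.075 for Acadm and −0.081 for Bdh1. In T2D they were 0.0013 for Hadha and 0.000984 for Hadhb at a minimum of 5 CPM, and 0.027 for Hadhb and 0.087 for Pdk4 with RIN. With 1 library left out, T2D estimates ranged from −0.00040 to 0.117 for Cpt1a, −0.0725 to 0.0270 for Hadha, −0.0809 to 0.0385 for Hadhb, −0.0536 to 0.0586 for Acadvl, −0.0140 to 0.169 for Bdh1, −0.197 to 0.0263 for Pdk4 and −0.0138 to 0.0829 for Hsd17b10. The difference ranged from −0.0882 to 0.0253 for Acadvl, −0.127 to 0.0655 for Bdh1 and −0.0579 to 0.00558 for Oxct1. Cpt2 had the lowest counts of the 10, with as few as 34.1 in a library, and a coefficient of variation of 16.9% to 32.6% within groups.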
